A study of Homo sapiens with 4 samples.

Results

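The laminin chain genes were followed in AGS cells, a line from a human gastric adenocarcinoma. They were taken by gene name from the gene table, which gave LAMA1, LAMA3, LAMA4, LAMA5, LAMB1, LAMB2, LAMB3 and LAMC1, or 8 of the 47251 genes listed. LAMA2, LAMB4 and LAMC3, which lie outside this rule, were read beside them because a laminin needs a partner from each class. RNA was sequenced in 4 libraries. In the sh-MFAP2 group, 2 libraries came from AGS cells carrying an shRNA against MFAP2, a protein of the microfibrils of the extracellular matrix. In the control group, 2 libraries came from AGS cells carrying a scrambled shRNA. Both groups were made with lentivirus and selected with puromycin, so the controls also carry a vector. The titles name the same shRNA for both sh-MFAP2 libraries, while another label numbers them differently, so they may carry different shRNAs. Whether the 2 libraries of a group came from separate cultures is not given. The p-values therefore measure only the spread between these libraries, which may be technical or, with sh-MFAP2, lie between shRNAs.

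Laminins are cross-shaped proteins of the basement membrane, built in the cell from an alpha, a beta and a gamma chain wound into a coiled coil and then secreted. The number of a laminin lists its chains, so that laminin-511 holds alpha 5, beta 1 and gamma 1. The globular end of the alpha chain binds integrins and dystroglycan on the cell surface. The beta and gamma arms help to tie laminins into a sheet, and nidogen attaches to the gamma 1 chain. In epithelia, laminins with the alpha 3 chain anchor cells through hemidesmosomes, laminin-511 is a general component of adult basement membranes, and laminin-111 is best known from the embryo.

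Values were taken as FPKM, fragments per kilobase of transcript, scaled to the mapped reads of the library, which is a level per length. Comparisons between genes rest on how the gene value was scaled, which is not known. Steps between low values implied about 55000000 to 61300000 reads in the sh-MFAP2 libraries and 59400000 to 75200000 reads in the controls. This depth was inferred and not given by the authors, and only 65.3% to 66.8% of the low values examined came out as whole reads within 0.05, where 10% would by chance. MFAP2 had the value 0 in both libraries with its shRNA and 0.0116 and 0.0138 FPKM in the controls, about 2.01 and 3.02 reads. MFAP2 was thus near 0 in the controls too, and the knockdown could not be checked from these values. The paper reported the knockdown in its stable AGS line by western blot and quantitative PCR. All 6 epithelial markers examined averaged at least 1 FPKM, with summed levels of 1924 to 2008 FPKM in the sh-MFAP2 libraries and 1780 to 2006 FPKM in the controls. Of these, CLDN4 was at 47.1 FPKM in sh-MFAP2 replicate 1 and between 0.0151 and 0.551 FPKM in the other libraries. All 5 endothelial markers were under 1 FPKM in every library. The single tested markers of fibroblasts (COL1A1) and leukocytes (CD68) made up most of their lists, whose sums ran from 2.12 to 2.34 and from 3.27 to 3.30 FPKM with sh-MFAP2, and from 4.39 to 4.96 and from 7.35 to 8.15 FPKM in the controls. For 4 smooth muscle markers the sums were 4.80 to 5.12 FPKM with sh-MFAP2 and 3.12 to 3.27 FPKM in the controls. Under 1 FPKM in every library were 5 of the fibroblast, 4 of the leukocyte and 2 of the smooth muscle markers. The part of these lists in the laminin values was not tested, and a change in the number of cells of a type cannot be told apart from a change in RNA per cell.

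**Figure D1:**
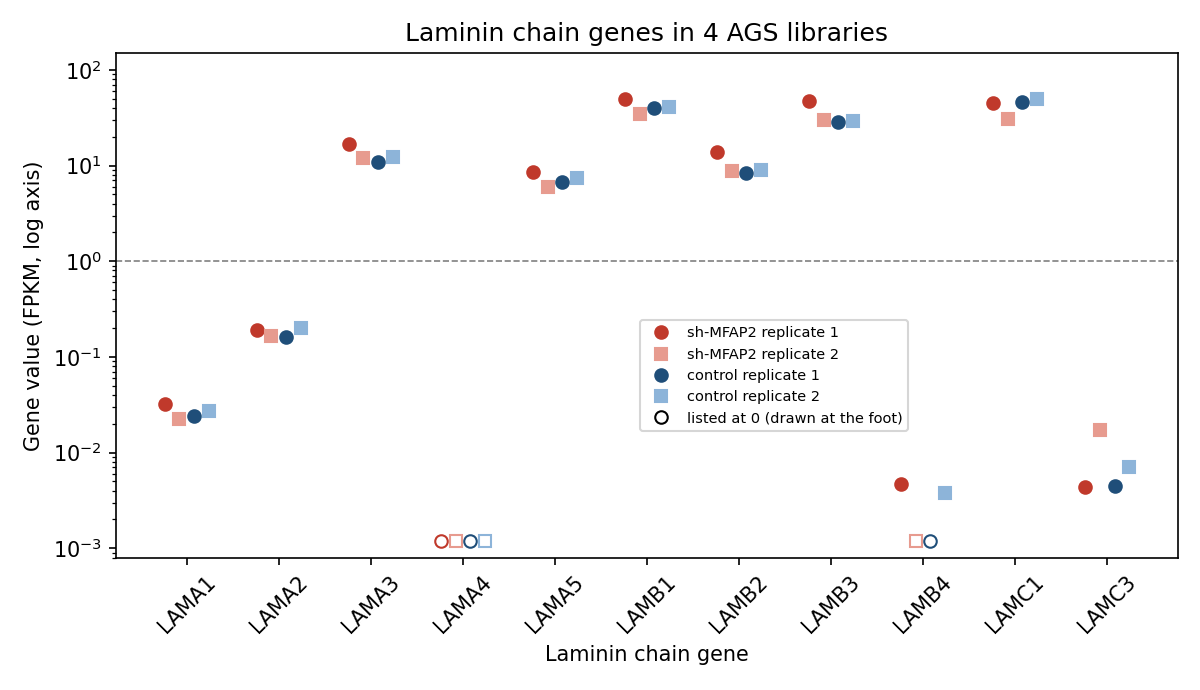
Level of each of 11 laminin chain genes in FPKM on a log axis, 1 point per library, with a dashed line at 1 FPKM and open symbols for values listed at 0. All 4 points of LAMA3, LAMA5, LAMB1, LAMB2, LAMB3 and LAMC1 lie above the line, and those of the other 5 chains lie below it.

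Among the alpha chains, only alpha 3 and alpha 5 were expressed above 1 FPKM. LAMA3 (chr18:23689443-23956222, plus strand, GRCh38), the alpha chain of hemidesmosomes, was at 16.9 and 12.03 FPKM in replicates 1 and 2 of sh-MFAP2, against 10.8 and 12.3 FPKM in control replicates 1 and 2. LAMA5 (chr20:62307955-62367312, minus strand), the chain of laminin-511, was at 8.60 and 5.90 FPKM with sh-MFAP2, against 6.81 and 7.44 FPKM in the controls. In both genes sh-MFAP2 replicate 1 was the highest library and the groups overlapped. LAMA1 (chr18:6941744-7117814, minus strand), the embryonic alpha chain, was at 0.0320 and 0.0225 FPKM with sh-MFAP2, against 0.0240 and 0.0269 FPKM in the controls. Its value came from 1 transcript annotated as having a retained intron (LAMA1-207), while its coding transcript LAMA1-201 was listed at 0 throughout. LAMA4 (chr6:112108760-112254939, minus strand), a chain of vessel walls and muscle, was listed at 0 in all 4 libraries, and LAMA2, the muscle chain outside the gene rule, was at 0.160 to 0.200 FPKM.

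All of the beta chains of the rule were expressed. LAMB1 (chr7:107923799-108003255, minus strand), the widespread beta chain, was at 49.4 and 34.5 FPKM in replicates 1 and 2 of sh-MFAP2, against 40.1 and 40.9 FPKM in the controls. LAMB2 (chr3:49121114-49133118, minus strand), the beta chain of kidney and synaptic basement membranes, was at 13.9 and 8.71 FPKM with sh-MFAP2, against 8.40 and 9.04 FPKM in the controls. LAMB3 (chr1:209614870-209652466, minus strand), an epithelial beta chain, was at 46.8 and 30.3 FPKM with sh-MFAP2, against 28.7 and 28.98 FPKM in the controls. The controls lay between the sh-MFAP2 libraries for LAMB1, the groups overlapped for LAMB2, and each sh-MFAP2 library was higher than either control for LAMB3. LAMB4, outside the rule, did not exceed 0.00469 FPKM.

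LAMC1 (chr1:183023460-183145592, plus strand), the gamma chain of most laminins, was at 45.4 and 30.3 FPKM in replicates 1 and 2 of sh-MFAP2, against 46.4 and 50.1 FPKM in controls 1 and 2. Each sh-MFAP2 library was lower than either control, replicate 1 only just so. LAMC3 was at 0.0170 FPKM or less.

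By the mean of 4 libraries, LAMC1 (43.0 FPKM) and LAMB1 (41.2 FPKM) stood first, followed by LAMB3 (33.7), LAMA3 (13.0), LAMB2 (10.0) and LAMA5 (7.19 FPKM). LAMC1 was above LAMB1 in 2 of the 4 libraries, both of them controls, and below it in both sh-MFAP2 libraries. Over all 4 libraries these neighbours could thus not be ordered. Each of the other neighbours kept this order in 4 of 4 libraries. With the FPKM of a gene's transcripts summed in place of the gene value, an alternative added after seeing the data, LAMB1 came first at 71.4 FPKM and LAMC1 second at 47.4 FPKM. The place of LAMA5 as the lowest expressed chain held on both scales, at 7.19 and 13.2 FPKM. Summed over each class in the gene table, alpha chains reached 17.8 to 25.7 FPKM and beta chains 73.4 to 110.0 FPKM.

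Of 13 laminins examined, none of which holds the beta 3 chain (LAMB3), 4 had all of their chains at a mean of 1 FPKM or more. These were laminin-311 and laminin-321 with the alpha 3 chain, and laminin-511 and laminin-521 with the alpha 5 chain. The alpha chain was the lowest of the 3 chains in 3 of them, at 13.0 FPKM (LAMA3) in laminin-311 and at 7.19 FPKM (LAMA5) in laminin-511 and laminin-521. In laminin-321 it was LAMB2, at 10.0 FPKM. The other 9 lacked a chain at this level: LAMA1 in laminin-111 and laminin-121, LAMA2 in laminin-211 and laminin-221, LAMA4 in laminin-411 and laminin-421, LAMC3 in laminin-523, and both the alpha chain and LAMC3 in laminin-213 and laminin-423. These are levels of RNA, and assembled protein was not measured. Laminins with the beta 3 chain were not assessed.

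The comparison of sh-MFAP2 with control asks which of these chains move when MFAP2 is targeted. Of the 8 genes of the rule, 6 averaged at least 1 FPKM and were tested with limma on log2(FPKM + 1), together with all 9873 genes that passed this filter. No chain was called at p under 0.01 and a Benjamini-Hochberg adjusted p under 0.05, and 0 had an unadjusted p under 0.05. Among all genes tested, 0.273% were called (0.152% higher and 0.122% lower in sh-MFAP2) and 12.3% had an unadjusted p under 0.05 (3.89% higher and 8.41% lower). LAMB3 had the highest log2 fold change, 0.37 (SE 0.244, 95% interval -0.32 to 1.07, limma adjusted p = 0.555), with group means of 38.5 ± 11.7 and 28.8 ± 0.231 FPKM (SD, n = 2 each). LAMC1 had the lowest, -0.37 (SE 0.233, 95% interval -1.03 to 0.29, limma adjusted p = 0.547), with means of 37.9 ± 10.7 and 48.2 ± 2.61 FPKM. These were the only chains whose groups did not overlap, against 48.9% of all genes tested (17.5% higher and 31.4% lower with sh-MFAP2).

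LAMB2 followed at 0.31 (SE 0.246, 95% interval -0.39 to 1.005, limma adjusted p = 0.612) and LAMA3 at 0.28 (SE 0.202, 95% interval -0.29 to 0.86, limma adjusted p = 0.580). The intervals of these 4 chains reached past 0 on both sides. LAMB1 had a log2 fold change of 0.03 (95% interval -0.57 to 0.62, limma adjusted p = 0.966) and LAMA5 of 0.0036 (95% interval -0.57 to 0.58, limma adjusted p = 0.996). For these near-zero chains the intervals still allow changes of more than 0.5 on the log2 scale in either direction. The median log2 fold change of the 6 tested chains was 0.16, and that of all genes was -0.05.

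The direction of LAMA5, LAMB1 and LAMB2 depended on which libraries were kept. Without sh-MFAP2 replicate 1, the log2 fold change of LAMA5 was -0.24, of LAMB1 -0.23 and of LAMB2 -0.0017, that of LAMB3 dropped to 0.07, and the median of the chains was -0.11. Without sh-MFAP2 replicate 2, LAMB3 was at 0.68, LAMC1 at -0.08 and the median at 0.40. LAMA5 also turned to -0.05 without control replicate 1. LAMA3 (0.06 to 0.51), LAMB3 (0.07 to 0.68) and LAMC1 (-0.65 to -0.08) kept their sign whichever library was left out.

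**Figure D2:**
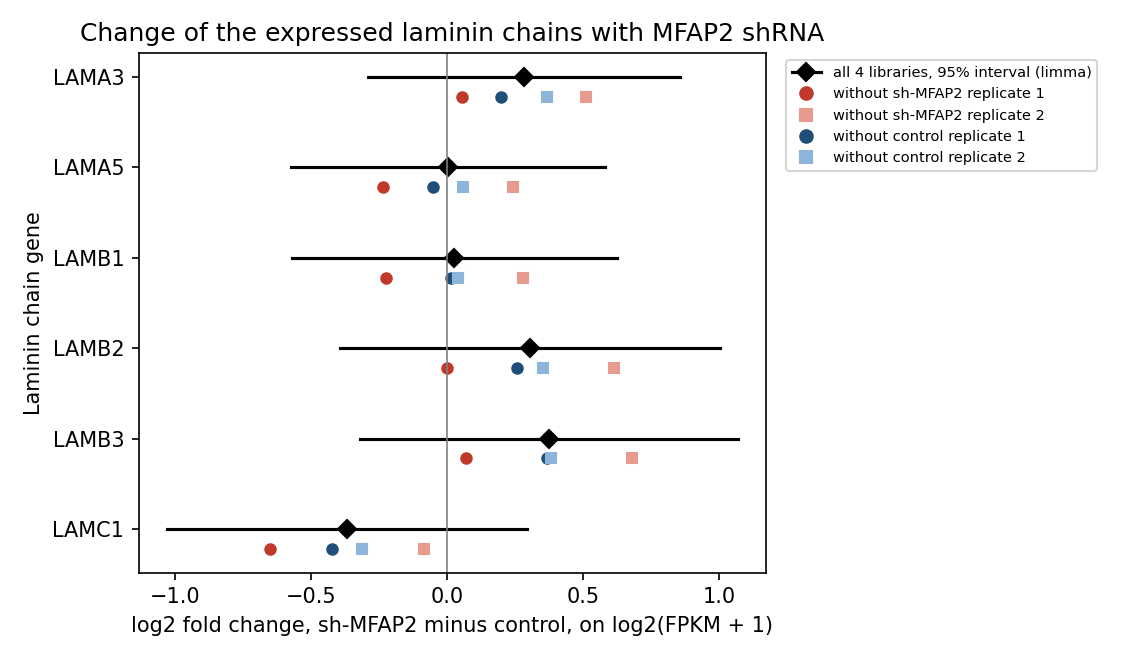
Log2 fold change of each tested laminin chain, sh-MFAP2 minus control, on log2(FPKM + 1). Diamonds with bars are the limma estimate and 95% interval over all 4 libraries and small symbols the estimate with 1 library left out, and every interval crosses 0.

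The chains differed more between the sh-MFAP2 replicates than between the groups. Whether these replicates carry the same shRNA is not known. On log2(FPKM + 1), sh-MFAP2 replicate 1 exceeded replicate 2 by 0.46 for LAMA3, 0.48 for LAMA5, 0.51 for LAMB1, 0.61 for LAMB2, 0.61 for LAMB3 and 0.57 for LAMC1. This was 6 of 6 chains, while 43.9% of all genes tested were higher in replicate 1 than in replicate 2. Differences as large as the smallest of these or larger were seen in 7.75% of all genes. Between the controls the same differences ran from -0.17 (LAMA3) to -0.02 (LAMB3), with 0 of 6 chains higher in replicate 1. Of all genes tested, 48.3% were higher in control replicate 1, and 83.9% had a difference at or above that of LAMA3. The chains thus moved together between the sh-MFAP2 replicates, a single pair of libraries. For 5 of the 6, sh-MFAP2 replicate 1 was the highest library, LAMC1 being highest in control replicate 2. The share of all genes highest in sh-MFAP2 replicate 1 was not computed. About 3290 to 31700 inferred reads lay behind each value of a tested chain.

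Base composition also moved with this difference. The median difference between the sh-MFAP2 replicates was -0.16 below the lower quartile of GC content and 0.07 above the upper quartile. In the quartiles between it was -0.053 and -0.005, and for genes with a main transcript over 4000 bases it was -0.01. The main transcripts of the 6 chains had a GC content of 48.0% (LAMA3) to 66.4% (LAMA5) and a length of 4055 (LAMB3) to 11426 bases (LAMA5). The part of GC content, length and depth in the chains' values was not tested. The 95th percentile of the difference ran from 0.557 to 0.666 over the GC quartiles, and the 6 chains lay at 0.46 to 0.61. LAMC1, at 0.567, was just above that of its own quartile (0.557), and the other chains were below theirs.

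**Figure D3:**
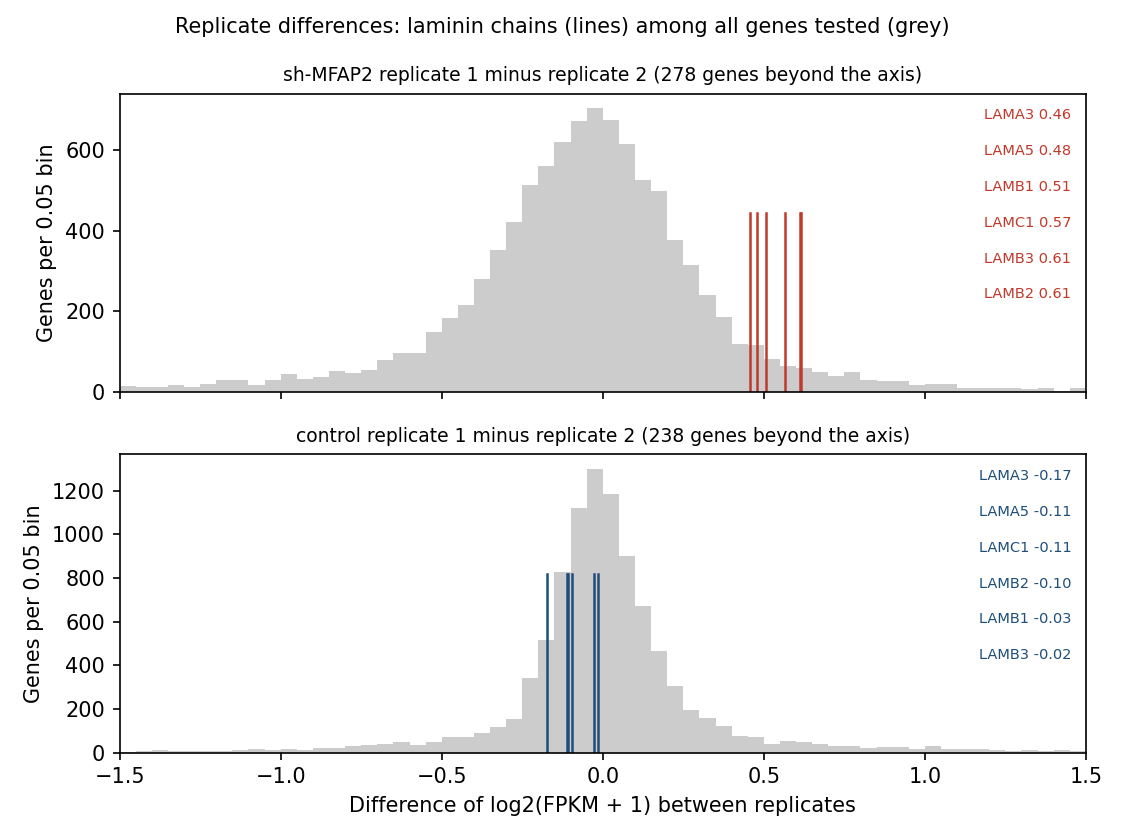
Difference of log2(FPKM + 1) between the replicates of each group for all 9873 genes tested (grey, number of genes per bin) and for the 6 laminin chains (lines). The chains lie together at 0.46 to 0.61 between the sh-MFAP2 replicates, in the upper tail, and at -0.17 to -0.02 between the controls.

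A shift that all chains share drops out when each chain is taken as a share of its class within a library. These shares were computed after the values had been seen, and are given as a description. The alpha and beta classes were used.

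In the beta class, LAMB3 held 42.5% and 41.2% with sh-MFAP2 and 37.1% and 36.7% in the controls. LAMB1 held 44.9% and 46.9% with sh-MFAP2 and 52.0% and 51.8% in the controls. The share of LAMB3 was thus higher by 4.93 percentage points with sh-MFAP2, against gaps of 1.33 and 0.404 points between replicates, and that of LAMB2 by 1.05 points. In the alpha class, LAMA3 held 65.7% and 66.4% with sh-MFAP2 and 60.7% and 61.6% in the controls, and LAMA5 nearly all of the remainder. LAMA3 and LAMB3 each took a larger share of their class in both sh-MFAP2 libraries than in both controls. With 2 libraries against 2 the exact two-sided permutation test cannot go below p = 0.333, the value of each of these 5 shares, and the shares of a class are tied to one another. The groups did not overlap for 5 of 5 shares, where 48.9% of single genes and 46.2% of gene pairs did not overlap either. Neither percentage is a like baseline, because the chains have a replicate shift in common that drops out of a share. With summed transcripts in place of gene values, the groups still did not overlap for the 3 beta shares, but they overlapped for the alpha shares, where LAMA3 stood at 74.4% and 64.5% with sh-MFAP2 against 64.3% and 67.7% in the controls.

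**Figure D4:**
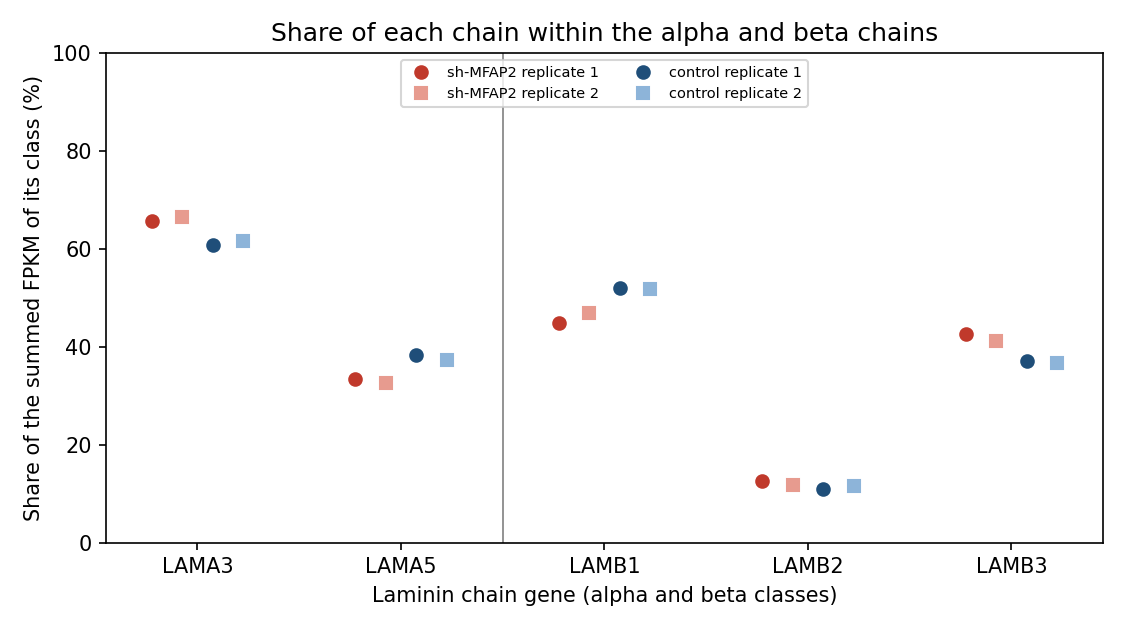
Share of each chain in the summed FPKM of its class (percent), 1 point per library. LAMA3, LAMB2 and LAMB3 are higher and LAMA5 and LAMB1 lower in both sh-MFAP2 libraries than in both controls, with LAMB3 at 41.2% to 42.5% against 36.7% to 37.1%.

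Pairs of chains were also compared within a library, on log2(FPKM + 1). LAMB3 and LAMC1 are shown because their difference changed most of the 15 pairs, which follows from their having the highest and the lowest fold change. Their difference was 0.04 and -0.00 in the sh-MFAP2 libraries and -0.68 and -0.77 in the controls. The exact permutation p was 0.333, the smallest possible. For LAMB1 and LAMC1, the partners in laminin-511 and laminin-311, the difference was 0.12 and 0.18 with sh-MFAP2 and -0.21 and -0.29 in the controls. With summed transcripts LAMB1 was above LAMC1 in the controls too, at 71.1 and 70.5 FPKM against 50.5 and 55.1 FPKM, so the change of order was not seen on that scale. The groups did not overlap in 12 of the 15 pairs of tested chains, against 46.2% of all pairs of tested genes. The 15 pairs share 6 genes and the same 4 libraries, so they are not independent. The replicate shift that the chains have in common drops out of these pairs too, so all gene pairs are not a like baseline.

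LAMA3 is transcribed from separate start sites into a short and a long chain. Both end in the same globular domains, and the long chain carries an additional arm at its amino end. The first bases of both coding sequences, which show that the chains start from different exons, are given 5′ to 3′ with the start codon in capitals, from the GENCODE 29 transcripts on GRCh38. The long form starts at chr18:23689684 and the short form at chr18:23873045, both on the plus strand.
LAMA3-202, long form: ATGgcggcggccgcgcggcctcggggtcgg
LAMA3-201, short form: ATGcctccagcagtgaggcggtcagcctgc

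LAMA3-201, with 38 exons and 5671 bases, was at 34.6 and 7.33 FPKM in replicates 1 and 2 of sh-MFAP2, against 16.9 and 23.0 FPKM in the controls. LAMA3-202, with 75 exons and 10661 bases, was at 1.59 and 10.7 FPKM with sh-MFAP2, against 3.97 and 2.75 FPKM in the controls. The short form was thus the main one in 3 libraries, and the long form in sh-MFAP2 replicate 2. By inferred reads, transcripts from the upstream start held 11.7% and 74.2% of LAMA3 reads with sh-MFAP2, and 33.4% and 20.7% in the controls. Transcripts from the internal start held 87.1% and 25.6% with sh-MFAP2, and 66.4% and 79.01% in the controls. The sh-MFAP2 libraries lay on either side of the controls for both forms, and neither form was called (log2 fold change -0.27, limma adjusted p = 0.933 for the short form, and 0.35, limma adjusted p = 0.912 for the long form). The forms share 5295 exonic bases, and 376 bases belong to the short form alone, so that their split is an estimate resting largely on the 5366 bases of the long form alone. The value of the short form exceeded that of its gene in 3 of the 4 libraries, and how the gene value was scaled is not known.

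LAMB1 showed a like split. Its main transcript LAMB1-201 was at 68.1 and 37.6 FPKM with sh-MFAP2, against 53.1 and 54.9 FPKM in the controls. LAMB1-204, named after its values were seen, shares 5457 of its bases with LAMB1-201 and was at 0.348 and 9.06 FPKM with sh-MFAP2, against 1.78 and 1.31 FPKM in the controls. In both genes the lesser transcript was highest in sh-MFAP2 replicate 2.

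**Figure D5:**
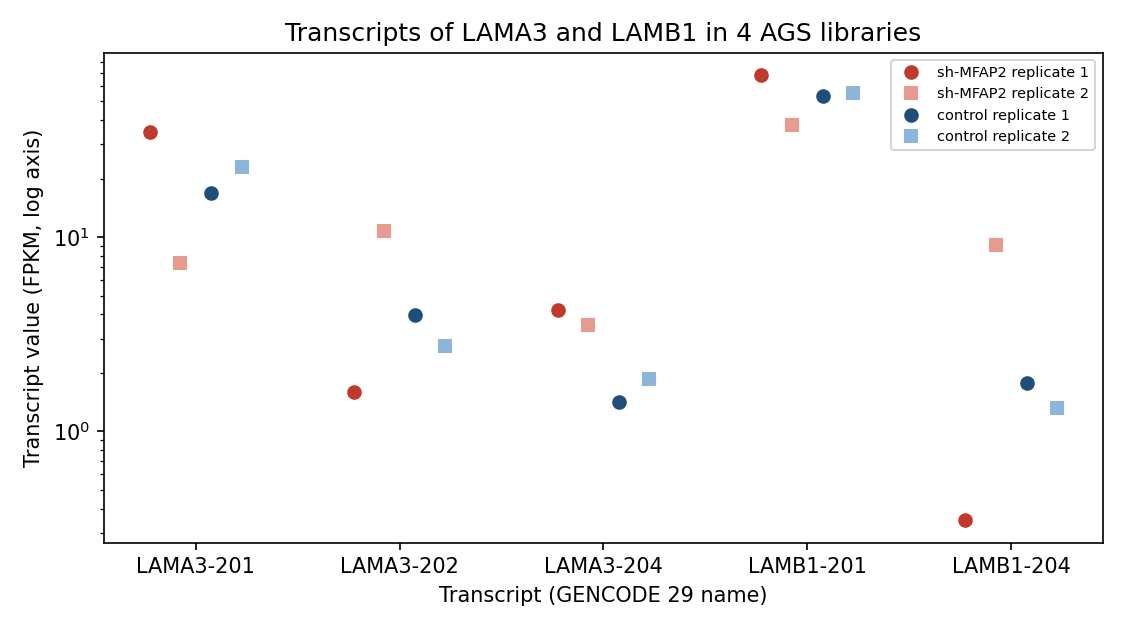
Transcript levels of LAMA3 and LAMB1 in FPKM on a log axis, 1 point per library. For LAMA3-201, LAMA3-202, LAMB1-201 and LAMB1-204 the sh-MFAP2 libraries fall on either side of both controls, while LAMA3-204 is at 3.51 to 4.21 FPKM with sh-MFAP2 and 1.42 to 1.85 FPKM in the controls.

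The other expressed chains were each led by 1 transcript. LAMB3-201 carried 94.4% to 98.0% of LAMB3 reads, at 52.7 and 33.0 FPKM with sh-MFAP2 and 32.5 FPKM in both controls. LAMC1-201 was at 48.2 and 32.1 FPKM with sh-MFAP2, against 49.3 and 53.2 FPKM in the controls, and so followed its gene. LAMB2-201 was at 15.2 and 9.73 FPKM with sh-MFAP2, against 7.64 and 8.88 FPKM in the controls, without overlap, while LAMB2-202 was lower in both sh-MFAP2 libraries (1.15 and 0.325 FPKM against 2.15 and 1.73 FPKM). These LAMB2 transcripts have coding sequences of the same 5394 bases and share all of them, so that they differ only outside the coding sequence. Only 86 bases belong to LAMB2-201 alone and 117 to LAMB2-202 alone, so their split is an estimate. Neither was called (limma adjusted p = 0.695 for LAMB2-201 and 0.677 for LAMB2-202). LAMA5-201 was at 10.2 and 6.88 FPKM with sh-MFAP2, against 8.09 and 8.93 FPKM in the controls. The second transcripts of these genes were minor. LAMB3-203 was at 1.14 and 1.08 FPKM with sh-MFAP2, against 0.547 and 0.680 FPKM in the controls, and LAMC1-204 at 1.19 and 1.23 FPKM against 0.342 and 1.06 FPKM, both too low on average to be tested. LAMA5-211, a noncoding transcript, was at 1.87 to 2.73 FPKM over the 4 libraries.

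Of 22312 transcripts tested with limma, 17 came from these laminin chain genes. None of the 17 was called, and 0% of all transcripts were called. Of the 17, 3 had an unadjusted p under 0.05, where 7.64% of all transcripts did. LAMA3-204 and LAMB1-202 are named after their values were seen. LAMA3-204, annotated as lacking a stop codon, had a log2 fold change of 0.88 (SE 0.209, limma adjusted p = 0.520). LAMB1-211 was at 5.79 and 4.59 FPKM with sh-MFAP2 and 2.74 and 3.01 FPKM in the controls (0.67, limma adjusted p = 0.608), and LAMB1-202 at 0.419 and 0.751 FPKM against 1.83 and 1.53 FPKM (-0.76, limma adjusted p = 0.631). Each was a minor transcript that did not reach the call.

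Promoter windows from 250 bases before to 50 bases after a RefSeq start (GRCh38.p14) were read for the 6 expressed chains, 8 windows in all, because members of a laminin are often expressed together. Both strands were searched for TGANTCA, the site of the AP-1 factors of the Jun and Fos families, for GGGCGG, the GC box bound by SP1, and for TATAAA. LAMB3 had 3 of the windows, of which 2 overlap and share their GC box. The GC box was found in all 6 chains (8 of 8 windows) and in 44.95% of 35116 promoters. The AP-1 letters were found in 2 of 8 windows and in 7.71% of all promoters. They were in the only window of LAMA3, at its internal start, and in a window of LAMB3. The upstream start of LAMA3, that of the long form, had no window and was not searched. TATAAA was found in 0 of 8 windows and in 11.5% of all promoters. The matches are shown 5′ to 3′ on the strand of the gene with the AP-1 letters in capitals, and they are descriptions of sequence, not evidence of binding.
LAMB3, 67 bases before a start, chr1:209651423-209651452, minus strand: gtcagccactcTGACTCAttcactttgggc
LAMA3, 125 bases before a start, chr18:23872884-23872913, plus strand: ctggcacaggcTGACTCAtgtgtgaagttt
LAMA3, 69 bases before a start, chr18:23872940-23872969, plus strand: ccttcctcaccTGAGTCAggcaggcccggg

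Both LAMA3 matches belong to the start of the short form, the main one in 3 of the 4 libraries. In GENCODE 29 they fall inside the first exon of LAMA3-201, whose annotated start at 23872840 lies upstream of the RefSeq start. The LAMB3 match lies in 1 of its 3 windows, the one that does not hold the start of LAMB3-201 at 209652466 and does not overlap the others.

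The genes whose pattern over the 4 libraries was closest to that of LAMC1, the chain with the highest mean, were SERPINH1, THTPA and PANK1. Likeness was the Euclidean distance between centred log2(FPKM + 1) values. SERPINH1, a collagen chaperone of the endoplasmic reticulum, was at a distance of 0.0512, with 75.6 and 50.4 FPKM under sh-MFAP2 and 80.2 and 85.7 FPKM in the controls. THTPA followed at 0.0576 and PANK1, an enzyme of coenzyme A synthesis, at 0.0676. Among the other laminin chains the nearest was LAMA5 at 0.377 and the farthest LAMB3 at 0.746. With 4 libraries these distances describe the libraries only.

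Receptors for laminin were expressed beside the chains. Of 14 examined, 12 were tested, 0 were called, and 1 had an unadjusted p under 0.05 in the higher and 2 in the lower direction, against 0.273% called and 3.89% higher and 8.41% lower among all genes tested. The median of the log2 fold changes was 0.11. ITGB1, a beta subunit of laminin-binding integrins, was at 56.6 and 51.2 FPKM with sh-MFAP2, against 78.1 and 86.4 FPKM in the controls (-0.60, SE 0.124, limma adjusted p = 0.330). SDC4, a heparan sulfate proteoglycan, was at 117 and 104 FPKM against 30.01 and 37.6 FPKM (1.69, SE 0.165, limma adjusted p = 0.132). Neither reached the call although their groups were well apart. RPSA, a ribosomal protein also described as a laminin receptor, was at 330 and 334 FPKM with sh-MFAP2, against 319 and 284 FPKM in the controls. CD151, a tetraspanin that associates with laminin-binding integrins, was at 81.4 and 57.9 FPKM against 58.6 and 55.9 FPKM (0.26, limma adjusted p = 0.609).

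Of 6 genes of the hemidesmosome, the junction that binds epithelial laminins, 5 were tested and 0 called, with 1 at an unadjusted p under 0.05 (lower; 8.41% of all genes tested) and a median log2 fold change of 0.03. This was ITGA6, which is also among the receptors counted above. ITGA6 was at 27.5 and 20.4 FPKM with sh-MFAP2, against 38.8 and 45.05 FPKM in the controls (-0.79, SE 0.195, limma adjusted p = 0.352). Its partner ITGB4 was at 25.2 and 19.4 FPKM against 18.2 and 19.7 FPKM (0.21, limma adjusted p = 0.607). The values of the alpha 6 subunit were thus apart between the groups and those of the beta 4 subunit overlapped. PLEC, the plakin that links the integrin to keratin, was at 19.7 and 17.7 FPKM with sh-MFAP2, against 18.3 and 18.1 FPKM in the controls.

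The rest of the basement membrane was thinly expressed. Of 19 partners, 15 were under 1 FPKM in every library and 4 were tested, with 0 called, 0 at an unadjusted p under 0.05 and a median log2 fold change of 0.09. AGRN (agrin), a proteoglycan that binds laminin, was the highest, at 29.6 and 19.4 FPKM with sh-MFAP2, against 20.9 and 22.2 FPKM in the controls. HSPG2 (perlecan) was at 9.07 and 6.51 FPKM against 6.99 and 7.84 FPKM, and COL4A5, a collagen IV chain, at 4.68 and 3.54 FPKM against 4.04 and 4.43 FPKM. All 3 were higher in sh-MFAP2 replicate 1 than in replicate 2, like the chains. NID1 (nidogen), the bridge between laminin gamma 1 and collagen IV, ran the other way, with 3.26 and 7.58 FPKM with sh-MFAP2 and 5.56 and 3.63 FPKM in the controls. The main collagen IV genes were low, COL4A1 at 0.612 to 0.896 FPKM and COL4A2 at 0.212 to 0.428 FPKM.

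Of 7 netrins and other proteins with laminin-type domains, 3 were tested and 0 called, with 0 at an unadjusted p under 0.05 and a median log2 fold change of 0.09. NTN4, a netrin that binds laminin gamma chains, was at 1.59 and 1.74 FPKM with sh-MFAP2, against 1.21 and 1.27 FPKM in the controls (0.25, limma adjusted p = 0.424). NTN1 was at 2.84 and 2.15 FPKM against 1.97 and 2.60 FPKM, MEGF9 at 1.15 and 1.29 against 1.43 and 1.52 FPKM, and NTN3 was at 0 with sh-MFAP2, against 0.0325 and 0.0255 FPKM in the controls. Of 7 proteases that process laminin chains, 3 were tested and 0 called, with 0 at an unadjusted p under 0.05 and a median of -0.08. MMP14, a membrane protease of the matrix, was at 66.0 and 45.6 FPKM with sh-MFAP2, against 54.5 and 62.8 FPKM in the controls. BMP1, which also trims procollagens, was at 3.84 and 3.57 FPKM against 3.05 and 5.11 FPKM. HPN (hepsin) was at 2.23 and 2.18 FPKM against 1.79 and 1.54 FPKM (0.27, limma adjusted p = 0.424), and MMP2 was between 0.0453 and 0.0900 FPKM in all libraries.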

How the data were processed

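Total RNA of 4 AGS libraries (2 sh-MFAP2, 2 control) was sequenced on an Illumina protocol. The authors deposited a table of gene values and a table of transcript values, taken here as FPKM from their form. Per the labels the genome build was hg38. The aligner, the estimating program and the use of strand are not given in the sources used here. Of LAMB1, 70 of 5725 exonic bases overlap DLD on the opposite strand.

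The 9873 genes and 22312 transcripts that averaged 1 FPKM or more were compared in limma 3.58.1 under R 4.3.3 (lmFit, then eBayes with its trend option), on log2(FPKM + 1), as sh-MFAP2 minus control, with Benjamini-Hochberg adjustment over all features tested. A fold change on this scale understates that of low genes. Calls had p under 0.01 and adjusted p under 0.05. Depth was inferred from steps in low FPKM values of features with 1 transcript. It is a number of reads, and fragments would be fewer if reads were paired. Whole reads were not recovered, so no count test was run. Annotation was GENCODE 29 (GRCh38), and promoters came from RefSeq. Tables were handled in Python 3.11.15 with pandas 2.3.3, numpy 2.4.6 and scipy 1.17.1, and figures were drawn with matplotlib 3.10.9.

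Named were the laminin chains (1 gene named by the rule is not reported here), the 4 members with the highest mean FPKM of the lists of receptors, basement membrane partners, hemidesmosome, netrins and proteases, the 2 highest transcripts of each tested chain and the 3 genes most like the highest chain. CLDN4, COL1A1, CD68, COL4A1, COL4A2, LAMA3-204, LAMB1-202 and LAMB1-204 were added after their values were seen. The members and lists were chosen with earlier results of these data known. Alternatives were other filters, pseudocounts and scalings, the replicate number as a block, eBayes without trend, summed transcripts and each library left out.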

Additional observations from a re-analysis of the deposited data

How the results depend on the processing

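No tested laminin chain gene was called by limma in any of the 72 alternative fits of single chains, where the lowest adjusted p was 0.178. Over other filters, pseudocounts, scalings and summed transcripts, the log2 fold change ran from 0.25 to 0.33 for LAMA3, 0.31 to 0.36 for LAMB2, 0.37 to 0.42 for LAMB3 and -0.38 to -0.32 for LAMC1. Leaving out 1 library moved it from -0.24 to 0.24 for LAMA5, -0.23 to 0.28 for LAMB1 and -0.0017 to 0.61 for LAMB2, and moved the median of the 6 chains (0.16) from -0.11 to 0.40. The lone library of a group is then assumed to vary like the other group. Among all genes, 27 were called, and 6 without a filter, 9 among genes averaging 5 FPKM or more, and 0 to 0 with 1 library left out (555 to 2166 at an unadjusted p under 0.05). With an unadjusted p under 0.05 alone, 1214 genes and 3 laminin transcripts passed, the latter count being 1 with the replicate block, 6 and 7 without sh-MFAP2 replicates 1 and 2, and 0 without either control. With the replicate number as a block, limma called 0 genes (722 at an unadjusted p under 0.05) and 0 laminin chains. The deviations of same-numbered libraries had a correlation of -0.0572, which gave no pairing of the libraries. Each group held 2 libraries. LAMA1 was low, with 19.6 to 32.1 inferred reads a library, and LAMB4 and LAMC3 had 7.12 inferred reads or fewer.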
